A study of Homo sapiens with 6 samples.

Results

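The kinesin superfamily was examined as the 35 genes of the expression table whose symbol is KIF or KIFC followed by a number and, in some, a letter from A to C, out of 15651 genes in all. RNA sequencing had been done on MDA-MB-231, a human triple-negative breast cancer cell line of mesenchymal character, in 3 libraries from cells given the vehicle DMSO and 3 from cells given BRL-50481, a small molecule that inhibits the cAMP-hydrolysing phosphodiesterase PDE7A. The protocol text of the labels and the methods of the study give 50 μM for 72 h, while the treatment tag of the BRL-50481 samples reads 5 μM and 48 h. The replicates are described as biological, and all are from 1 cell line. The question behind the experiment was which transcripts change when PDE7A is inhibited in such cells.

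Kinesins are motor proteins that use ATP to walk along microtubules or to take subunits off microtubule ends. The mitotic kinesins build the bipolar spindle, align chromosomes and organise the midzone where the cell divides, and many of their transcripts are made mainly from G2 to mitosis. The transport kinesins carry vesicles, organelles and RNA through the cell, and several also serve the cilium. By these known roles the 35 genes were sorted into 13 mitotic, 15 transport and 7 other kinesins. Of the names listed for the 3 classes, KIF2B, KIF4B, KIF1A, KIF5A, KIF12, KIF19 and KIF26A were not analysed here.

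Between 30750573 and 33446984 reads per library lay behind the values, which are normalized counts, that is, read counts divided by a size factor of the library. VIM, CD44 and AXL, which mark this mesenchymal line, had 30982 normalized counts or more in all 6 libraries, while CDH1 lay between 31.7 and 105 and PGR at 7.75 or less. Replicate libraries differed by more than sampling noise. DMSO replicate 1 stood apart from the other DMSO libraries in its trend on transcript length, which is given with the results that it touches.

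A motif known from promoters of cell cycle genes was found in 9 of 13 mitotic and 1 of 11 transport kinesin promoters. RefSeq promoter windows (GRCh38.p14, 250 bases before to 50 bases after the start site) were at hand for 29 of the 35 genes. The stretches below, from 100 bases before the start site to 12 bases after it, are shown for 4 mitotic kinesins with large changes or a clear motif pair and for 2 transport kinesins that fell. They lie at chr1:200620740-200620851 (minus strand) for KIF14, chr5:138179012-138179123 (plus strand) for KIF20A, chr15:69414249-69414360 (plus strand) for KIF23, chrX:70290004-70290115 (plus strand) for KIF4A, chr5:132737535-132737646 (minus strand) for KIF3A and chr17:4997850-4997961 (plus strand) for KIF1C. The start sites are those of RefSeq. By the GENCODE gene positions given further on, KIF23 and KIF20A begin before their stretches, so distances hold for the RefSeq start sites only. Capitals mark the cell cycle genes homology region (TTTGAA, or TTCAAA where it lies on the other strand) and the CCAAT box (CCAAT, or ATTGG on the other strand).
KIF14: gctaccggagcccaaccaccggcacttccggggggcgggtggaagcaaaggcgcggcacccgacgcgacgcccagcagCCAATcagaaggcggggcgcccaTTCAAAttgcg
KIF20A: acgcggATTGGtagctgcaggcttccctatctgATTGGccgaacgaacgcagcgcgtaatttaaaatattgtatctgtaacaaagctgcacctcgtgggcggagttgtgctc
KIF23: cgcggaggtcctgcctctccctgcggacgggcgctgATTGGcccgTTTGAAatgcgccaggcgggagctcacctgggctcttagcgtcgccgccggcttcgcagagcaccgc
KIF4A: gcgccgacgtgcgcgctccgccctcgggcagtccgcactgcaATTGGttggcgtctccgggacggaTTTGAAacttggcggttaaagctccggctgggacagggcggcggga
KIF3A: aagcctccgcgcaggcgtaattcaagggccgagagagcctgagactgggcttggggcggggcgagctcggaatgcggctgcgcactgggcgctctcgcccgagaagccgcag
KIF1C: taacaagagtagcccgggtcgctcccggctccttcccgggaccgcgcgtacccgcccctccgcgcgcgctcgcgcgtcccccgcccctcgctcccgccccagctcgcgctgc

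In KIF23 and KIF4A the CCAAT box came first and the homology region followed within the same stretch, and in KIF14 the homology region lay just past the start site. KIF20A had CCAAT boxes alone, and the stretches of KIF3A and KIF1C had neither motif. The homology region was found on either strand in the windows of 9 of 13 mitotic kinesins (69.2%), 1 of 11 transport kinesins (9.09%, KIF5B) and 0 of 5 other kinesins, against 18.2% of the 27305 genes with a window. Within 60 bases of the start site it was found in 9 of 13 mitotic and in 0 of 11 transport kinesins, against 6.26% of all genes. The limit of 60 bases was not part of the plan for the motifs. It lies between the farthest mitotic match, at -55 (KIF23), and the transport match, at -140 (KIF5B). The CCAAT box was in 10 of 13 mitotic, 4 of 11 transport and 2 of 5 other kinesins, against 39.7% of all genes. An E2F motif (GCGGGAA, searched on both strands, with no match that overlapped the other 2 motifs in a kinesin window) was in 0 of 13 mitotic kinesins, in KIF17 and KIF1C among the transport kinesins and in KIF25, against 7.82% of all genes. KIF2C and KIF2A had none of the 3 motifs. A match describes letters in a window and says nothing of whether a factor binds there.

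**Figure D1:**
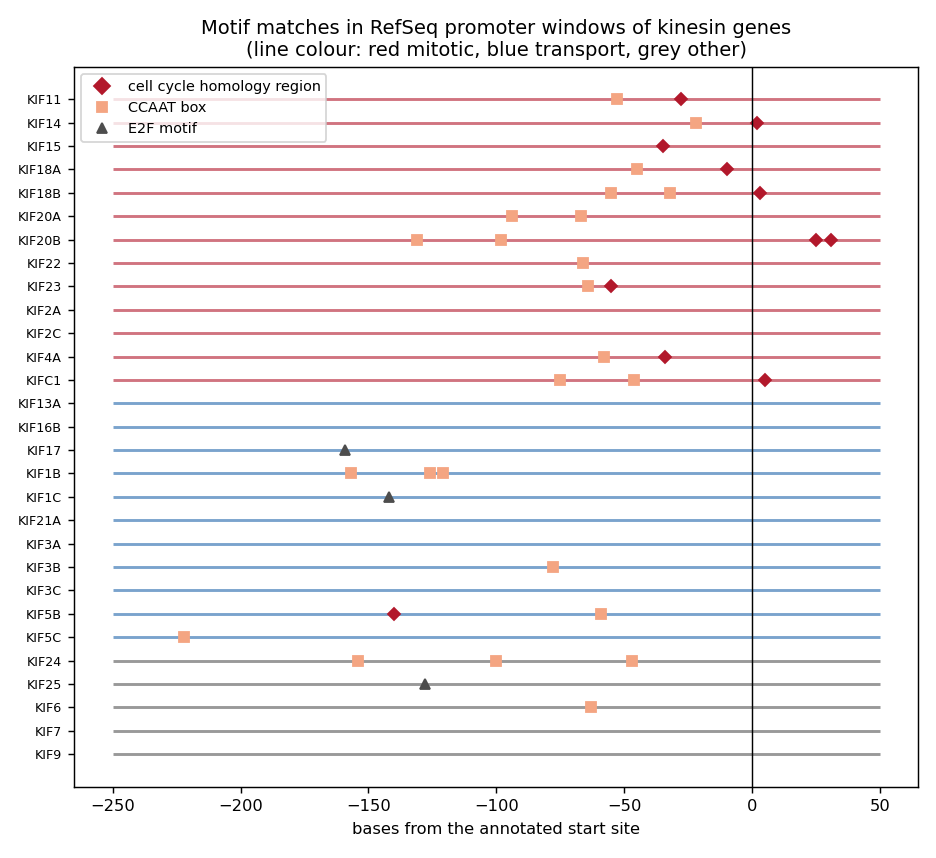
Matches of the cell cycle genes homology region (TTTGAA, diamonds), the CCAAT box (squares) and the E2F motif (GCGGGAA, triangles), on either strand, in the RefSeq promoter windows of 29 kinesin genes, by distance in bases from the annotated start site. The homology region lies within 60 bases of the start site, a limit that was not planned, in 9 of the 13 mitotic kinesins and in none of the 11 transport kinesins.

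Most kinesin transcripts were higher after BRL-50481. Of the 35 genes, all of which passed the filter on low values, 24 were higher and 6 lower at an adjusted p-value under 0.05, and 5 were not called (limma on log2 of the normalized count plus 1, Benjamini-Hochberg adjustment over the 15246 genes tested). Over all genes tested, 28.9% were called higher and 29.8% lower. The count-based test of edgeR called 24 kinesins higher and 6 lower (28.6% and 30% of all genes), and that of DESeq2 called 23 higher and 6 lower (26.9% and 28.6% of all genes). The median log2 fold change was 0.35 over the kinesins and 0.01 over all genes. Changes beyond 1 on the log2 scale were found in 6 genes. KIF14, KIF20A, KIF2C, KIF15 and the scarce KIF5C were higher by that much, against 5.06% of all genes, and KIF17 alone was lower, against 2.98%. KIF5C passed the filter through the BRL-50481 libraries, where it was high, so its place in each count of higher kinesins carries no weight. Without it, the kinesins higher by that much were 4, all mitotic. Of these, KIF15 was only just past the limit, at 1.0007. It was under 1 with edgeR (0.9935), DESeq2 (0.9962) and a correction for transcript length and GC content (0.9142). With quantile normalization (1.0356) and median centring (1.031) it stayed above 1. All 3 BRL-50481 libraries lay above all 3 DMSO libraries for 23 kinesins and below them for 6, against 31.9% and 32.3% of all genes. For a single gene without overlap the two-sided exact permutation test gives p = 0.1, the smallest that 3 libraries against 3 allow. More cells in a given phase of the cycle and more RNA of a gene per cell cannot be told apart in these bulk libraries.

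**Figure D2:**
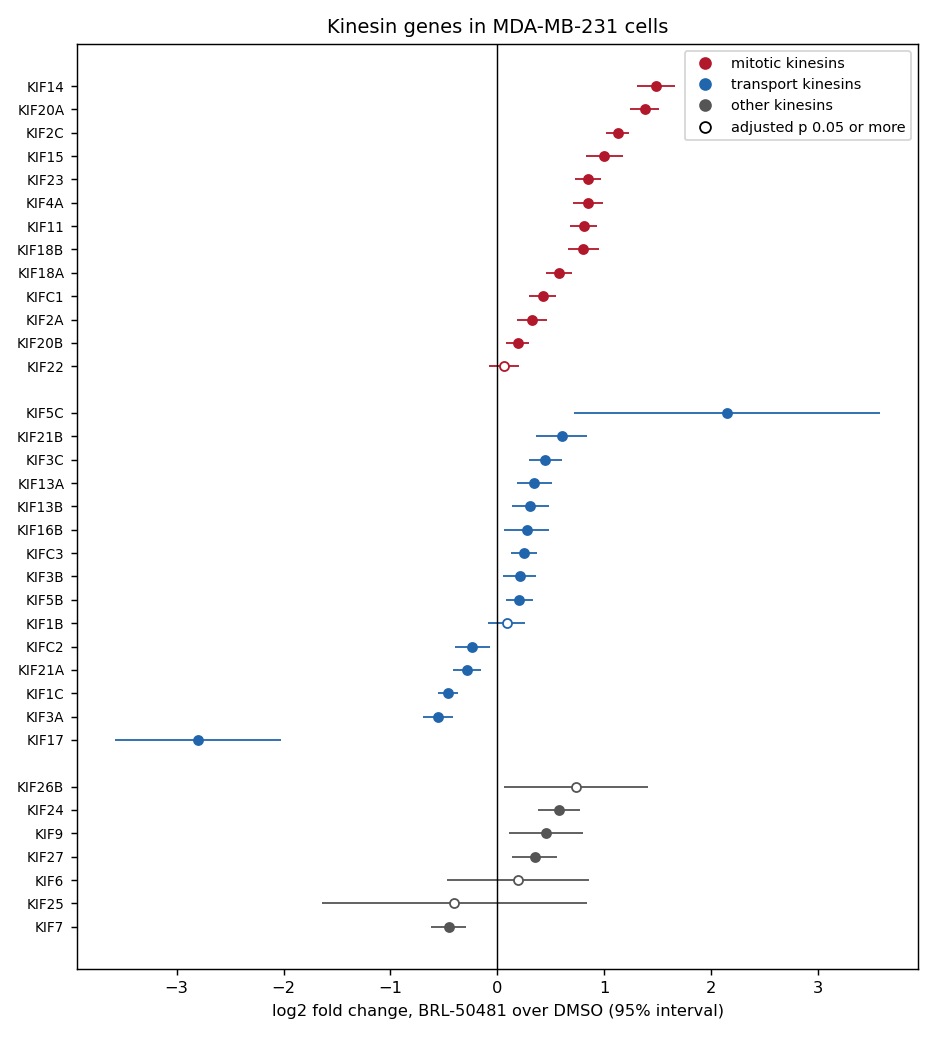
Log2 fold change of each of the 35 kinesin genes, BRL-50481 over DMSO, with its 95% confidence interval from limma, sorted within the mitotic, transport and other classes. The mitotic kinesins run from 0.06 (KIF22) to 1.48 (KIF14), all above 0, and the transport kinesins from -2.80 (KIF17) to 2.15 (KIF5C), on both sides of it.

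The mitotic kinesins rose nearly throughout. Of 13 genes, 12 were called higher (92.3%, against 28.9% of all genes) and 0 lower (against 29.8%). The remaining 1, KIF22, was not called, and the median log2 fold change was 0.81. The 12 called genes were also those in which every BRL-50481 library lay above every DMSO library, as in 31.9% of all genes.

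KIF14, which acts with citron kinase at the midbody in the last step of cell division, changed the most among them. Its normalized counts were 1417, 1084 and 1203 in DMSO and 3505, 3351 and 3450 in BRL-50481. The BRL-50481 libraries were close to each other and well above the highest DMSO library, which was replicate 1. The mean rose from 1235 ± 168 to 3435 ± 78.1 (SD, n = 3 each), which is a log2 change of 1.48 (SE 0.08, adjusted p = 1.31e-08, limma). The gene (ENSG00000118193) lies at chr1:200551497-200620751 on the minus strand of hg38.

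KIF20A carries the chromosomal passenger complex with Aurora B to the spindle midzone. Its 3 DMSO libraries read 727, 710 and 781 normalized counts, and its BRL-50481 libraries 1975, 1931 and 1871. Both groups were tight and did not overlap. The mean went from 740 ± 37.2 to 1926 ± 52.4 (SD, n = 3 each), which is a log2 change of 1.38 (SE 0.06, adjusted p = 3.55e-09, limma), and the gene is at chr5:138178719-138187723 on the plus strand. KIF20B, a relative that also works in cell division, moved far less, from 4073, 3837 and 4028 to 4663, 4401 and 4561, a log2 fold change of 0.19 (adjusted p = 0.00475). Under the correction for transcript length and GC content KIF20B was at 0.05 (adjusted p = 0.312) and lost its call.

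KIF2C removes tubulin from microtubule ends at the centromere, which helps to correct wrong attachments. It was the most abundant mitotic kinesin per kilobase of transcript in BRL-50481, at 1543 ± 33.9 normalized counts per kilobase against 707 ± 17.4 in DMSO. Its normalized counts were 1973, 2030 and 2072 in DMSO and 4348, 4374 and 4528 in BRL-50481, again without overlap. The log2 fold change was 1.12 (SE 0.05, adjusted p = 3.09e-09, limma), and the gene is at chr1:44739818-44767767 on the plus strand. KIF2A, a microtubule depolymerase of the spindle poles that also acts outside mitosis, had 2890, 2447 and 2485 in DMSO and 3289, 3142 and 3337 in BRL-50481, a log2 fold change of 0.32 (adjusted p = 0.00087), or 0.14 under the same correction. Where the annotation was compared, 2.54% of the exon bases of KIF2A were shared with another gene on the same strand.

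KIF15, which helps KIF11 to keep the spindle bipolar, had normalized counts of 888, 755 and 707 in DMSO and 1551, 1513 and 1622 in BRL-50481. The groups were separate, and DMSO replicate 1 was the highest of its group. The mean went from 783 ± 93.8 to 1562 ± 55.1 (SD, n = 3 each), which is a log2 change of 1.00 (SE 0.08, adjusted p = 3.76e-07, limma), for a gene at chr3:44761721-44873376 on the plus strand. KIF11 itself, the motor that pushes the spindle poles apart, had 3207, 2751 and 3029 in DMSO and 5248, 5320 and 5133 in BRL-50481. Its log2 fold change was 0.81 (adjusted p = 1.41e-07).

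KIF23 forms centralspindlin with RACGAP1, the complex that bundles midzone microtubules. Its DMSO libraries held 1830, 1726 and 1663 normalized counts and its BRL-50481 libraries 3083, 3138 and 3169, with no overlap. The mean rose from 1740 ± 84.2 to 3130 ± 43.6 (SD, n = 3 each), by 0.85 on the log2 scale (SE 0.05, adjusted p = 5.38e-08, limma), and the gene is at chr15:69414246-69448427 on the plus strand. KIF4A, a chromosome-bound motor that works with PRC1 at the midzone, rose by the same log2 fold change of 0.85 (adjusted p = 2.15e-07), from 1756, 1550 and 1505 to 2819, 2844 and 2982. KIF4A has a near-identical intronless copy, KIF4B, so reads that match both may have been lost or split in the counting.

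KIFC1, a motor that walks to the minus end and gathers centrosomes into spindle poles, was the most abundant mitotic kinesin per kilobase in DMSO, at 769 ± 44.9. Its normalized counts were 1922, 1879 and 1718 in DMSO and 2413, 2550 and 2436 in BRL-50481. The groups did not overlap, but the step was smaller than in the genes above. The mean rose from 1840 ± 107 to 2466 ± 73.6 (SD, n = 3 each), which is a log2 change of 0.42 (SE 0.06, adjusted p = 4.05e-05, limma), for a gene at chr6:33391823-33409896 on the plus strand.

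Among the remaining mitotic kinesins, KIF18B, which trims astral microtubules, had 713, 702 and 729 normalized counts in DMSO and 1187, 1319 and 1246 in BRL-50481, a log2 fold change of 0.80 (adjusted p = 4.04e-07). KIF18A, which dampens chromosome movements at the spindle equator, had 1440, 1335 and 1389 against 2088, 2078 and 2034, a log2 fold change of 0.57 (adjusted p = 1.79e-06). Both genes separated the groups. KIF22, which pushes chromosome arms outward, was the exception of the class, with 1204, 1328 and 1182 in DMSO and 1229, 1332 and 1315 in BRL-50481. These groups overlapped, and its log2 fold change of 0.06 had a 95% interval from -0.08 to 0.21 (adjusted p = 0.435), which leaves out rises of the size seen in the other mitotic kinesins from KIF2A upward.

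**Figure D3:**
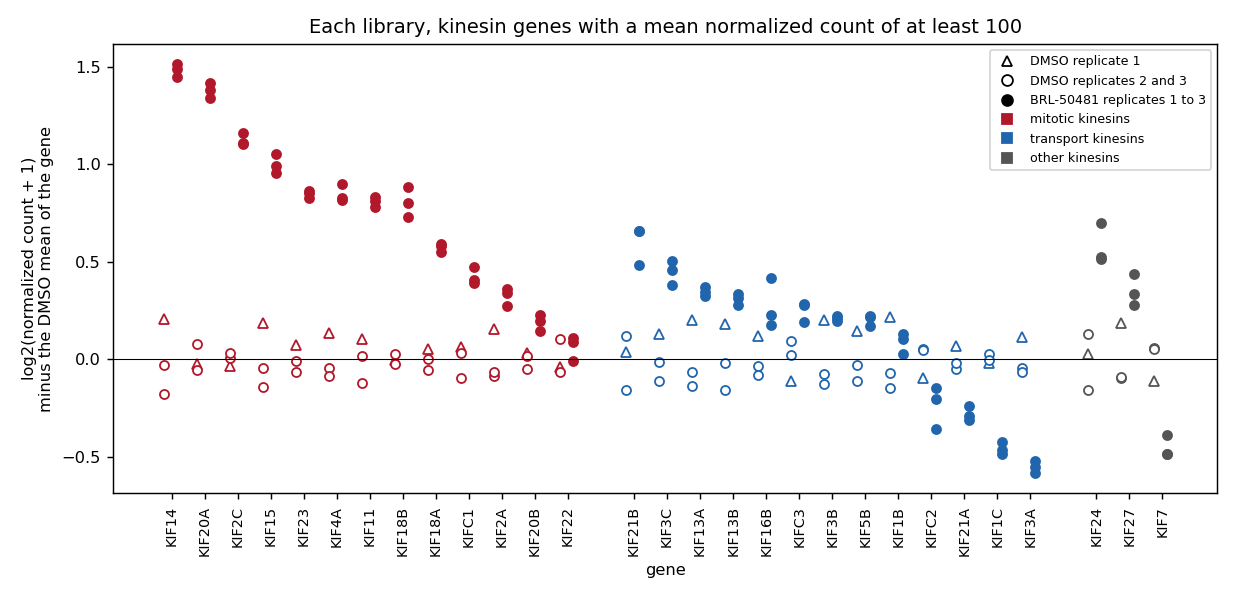
Log2 of the normalized count plus 1 in each library, less the DMSO mean of the gene, for the 29 kinesin genes that averaged 100 normalized counts or more, with DMSO as open and BRL-50481 as filled symbols. The filled symbols sit above all open ones in 12 of the 13 mitotic kinesins, while the transport kinesins lie on both sides. DMSO replicate 1 (triangles) is the highest of the DMSO libraries in 19 of the 29 genes. The share over all genes was not counted, so this is not shown to be a trait of the kinesins.

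The transport kinesins moved in both directions and mostly by little. Of 15 genes, 9 were called higher (60%, against 28.9% of all genes), 5 lower (33.3%, against 29.8%) and 1 was not called. The share called lower was thus near that of all genes. The 9 called higher include KIF5C, which passed the filter through the BRL-50481 libraries and so carries no weight. With a filter on a mean of at least 20, which leaves KIF5C out, 8 were called higher and 5 lower. The median log2 fold change was 0.21, which was 0.10 under the correction for length and GC content. All BRL-50481 libraries lay above DMSO in 8 genes, KIF5C again among them, and below in 5, against 31.9% and 32.3% of all genes. The groups overlapped in KIF1B and KIF3B. Leaving aside genes whose mean was under 100 normalized counts, 8 mitotic kinesins had a higher log2 fold change than the highest transport kinesin, KIF21B.

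KIF5B, the heavy chain of conventional kinesin that is used in most cell types, was the most abundant kinesin of all per kilobase, at 2114 ± 194 in DMSO and 2429 ± 45.2 in BRL-50481. Its normalized counts were 13652, 11429 and 12118 in DMSO and 14380, 13940 and 14417 in BRL-50481. The highest DMSO library, replicate 1, came close to the lowest BRL-50481 library. The log2 fold change was 0.20 (SE 0.06, adjusted p = 0.00958, limma), for a gene at chr10:32009015-32056425 on the minus strand. With limma fitted without a trend the adjusted p was 0.0712, and under the correction for length and GC content the log2 fold change was 0.08 (adjusted p = 0.018).

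KIFC3, a motor directed to the minus end that acts at cell junctions and the Golgi, was second, at 1459 ± 103 normalized counts per kilobase in DMSO. Its normalized counts were 4526, 5211 and 4962 in DMSO and 5584, 5948 and 5926 in BRL-50481, without overlap. The log2 fold change was 0.25 (SE 0.06, adjusted p = 0.00217, limma), and the gene is at chr16:57758217-57863053 on the minus strand. KIFC2, its relative that is known mainly from neurons, went the other way, with 868, 965 and 959 in DMSO and 726, 808 and 840 in BRL-50481, a log2 fold change of -0.23 (adjusted p = 0.0174). Its adjusted p was 0.0666 without DMSO replicate 3, 0.0959 without BRL-50481 replicate 1 and 0.0516 with limma without a trend.

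KIF1C, which carries vesicles of the secretory and integrin recycling routes, fell from a high level. Its normalized counts were 10277, 10630 and 10402 in DMSO and 7562, 7777 and 7438 in BRL-50481. The groups were far apart for their spread. The mean went from 10436 ± 179 to 7593 ± 171 (SD, n = 3 each), which is a log2 change of -0.46 (SE 0.04, adjusted p = 1.61e-06, limma), and the gene is at chr17:4997950-5028401 on the plus strand. KIF1B, which moves mitochondria and vesicle precursors, had 3055, 2375 and 2500 in DMSO and 2878, 2825 and 2678 in BRL-50481, overlapping groups with a log2 fold change of 0.09 (95% interval -0.08 to 0.26, adjusted p = 0.363). Without DMSO replicate 1 it was called higher at 0.20 (adjusted p = 0.000386), and under the correction for length and GC content it was called lower at -0.15 (adjusted p = 0.00375), so that its direction was not settled. In the annotation used here, 1.55% of its exon bases are shared with another gene on the same strand.

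Among the genes of heterotrimeric kinesin, KIF3A fell and KIF3C rose, while the rise of KIF3B was less secure. The adaptor gene KIFAP3 was not called, with overlapping groups and a log2 fold change of -0.05 (adjusted p = 0.533, limma). KIF3A and KIF3B together form the motor pair that carries cargo into the cilium, and KIF3C can take the place of KIF3B. KIF3A had normalized counts of 1788, 1606 and 1579 in DMSO and 1152, 1104 and 1127 in BRL-50481. Every BRL-50481 library was below every DMSO library, with a mean of 1658 ± 114 against 1128 ± 23.9 (SD, n = 3 each) and a log2 change of -0.55 (SE 0.06, adjusted p = 8.3e-06, limma), for a gene at chr5:132692628-132737638 on the minus strand. KIF3B had 4389, 3505 and 3629 in DMSO and 4384, 4422 and 4457 in BRL-50481. Its DMSO replicate 1 lay among the BRL-50481 libraries, and its log2 fold change was 0.21 (adjusted p = 0.023). Leaving out any single library other than DMSO replicate 1 took the adjusted p of KIF3B to between 0.0657 and 0.1, limma without a trend gave 0.113, leaving out DMSO replicate 1 gave a log2 fold change of 0.31, and the correction for length and GC content gave 0.10.

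KIF3C had 1095, 994 and 926 normalized counts in DMSO and 1379, 1421 and 1306 in BRL-50481, without overlap. Its log2 fold change was 0.45 (SE 0.07, adjusted p = 0.000141, limma), and the gene is at chr2:25926598-25982749 on the minus strand. Per kilobase, the ratio of KIF3A to KIF3B was 0.395, 0.444 and 0.422 in the DMSO libraries and 0.255, 0.242 and 0.245 in the BRL-50481 libraries. These ratios did not overlap (exact permutation test, two-sided, p = 0.1, chosen after the values were seen).

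A like opposite movement was found in the pair KIF21A and KIF21B, motors that also restrain microtubule growth. KIF21A had 1527, 1408 and 1434 normalized counts in DMSO and 1174, 1189 and 1230 in BRL-50481, a log2 fold change of -0.28 (adjusted p = 0.00128). KIF21B, which was far scarcer, had 178, 188 and 155 in DMSO and 274, 243 and 273 in BRL-50481. Both genes separated the groups, in opposite directions. The log2 fold change of KIF21B was 0.60 (SE 0.11, adjusted p = 0.000483, limma), for a gene at chr1:200969390-201023714 on the minus strand. The ratio of KIF21A to KIF21B per kilobase was 12.6, 11.0 and 13.5 in DMSO and 6.28, 7.17 and 6.59 in BRL-50481 (exact permutation test, two-sided, p = 0.1, a pair chosen after the values were seen).

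The endosomal motors KIF13A, KIF13B and KIF16B were modestly higher. KIF13A, which carries recycling endosomes, had 2537, 2010 and 2114 normalized counts in DMSO and 2765, 2803 and 2861 in BRL-50481. DMSO replicate 1 was the closest to the BRL-50481 group, and the log2 fold change was 0.35 (SE 0.08, adjusted p = 0.00146, limma), for a gene at chr6:17759183-17987635 on the minus strand. KIF13B had a log2 change of 0.31 (adjusted p = 0.00431), or 0.13 (adjusted p = 0.0347) under the correction for length and GC content, and KIF16B, which moves early endosomes, one of 0.27 (adjusted p = 0.0273). The call of KIF16B was lost under the correction for length and GC content (adjusted p = 0.0683), with quantile normalization (0.0821) and on leaving out DMSO replicate 2 (0.0753), DMSO replicate 3 (0.0762), BRL-50481 replicate 1 (0.135) or BRL-50481 replicate 2 (0.0519).

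At the low end were KIF17 and KIF5C, which are known from neurons and, for KIF17, the cilium. Neither met the count of 100 used for choosing genes, and both were singled out after their values were seen. KIF17 had 83.3, 62.7 and 76.6 normalized counts in DMSO and 5.03, 18.1 and 9.69 in BRL-50481. Every BRL-50481 library was far below DMSO, a log2 fold change of -2.80 (SE 0.36, adjusted p = 2.02e-05, limma). KIF5C had 5.95, 0 and 3.06 in DMSO and 15.1, 12.1 and 10.7 in BRL-50481. It passed the filter on low values through the BRL-50481 libraries, and its log2 fold change of 2.15 (SE 0.66, adjusted p = 0.0134) rests on few reads and on the count added before the logarithm. The adjusted p of KIF5C was 0.0621 without BRL-50481 replicate 1 and 0.051 with limma without a trend, and without DMSO replicate 2, the library with 0, its log2 fold change was 1.34.

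Of the 7 other kinesins, 3 were called higher (42.9%, against 28.9% of all genes), 1 lower (14.3%, against 29.8%) and 3 were not called. Their median log2 fold change was 0.35, and so few genes do not set the class apart from all genes. KIF24, which holds back the growth of primary cilia at the mother centriole, had 419, 368 and 448 normalized counts in DMSO and 590, 587 and 666 in BRL-50481. The groups were separate, with a log2 fold change of 0.58 (SE 0.09, adjusted p = 0.00013, limma), for a gene at chr9:34252380-34329268 on the minus strand. KIF7, a regulator of Hedgehog signalling at the tip of the cilium, had 722, 812 and 807 in DMSO and 557, 555 and 595 in BRL-50481. It fell without overlap, by 0.45 on the log2 scale (SE 0.08, adjusted p = 0.000185), for a gene at chr15:89608789-89663086 on the minus strand.

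KIF27, a paralogue of KIF7, had 415, 341 and 341 normalized counts in DMSO and 459, 442 and 493 in BRL-50481, a log2 fold change of 0.35 (SE 0.10, adjusted p = 0.00714, limma), for a gene at chr9:83834099-83921465 on the minus strand. Under the correction for length and GC content it was 0.19 (adjusted p = 0.0429). KIF27 and KIF7 both separated the groups, in opposite directions. KIF9, a motor of motile cilia, had a log2 change of 0.45 (adjusted p = 0.027) at mean counts of 68.9 in DMSO and 94.6 in BRL-50481, and its adjusted p was 0.17 with quantile normalization (log2 fold change 0.26), 0.0582 with DESeq2, 0.0855 without DMSO replicate 1, 0.0534 without BRL-50481 replicate 2 and 0.119 without BRL-50481 replicate 3. KIF26B, a member without motor activity, had one of 0.73 (adjusted p = 0.0571) at means of 29.9 and 49.6. It passed the threshold without DMSO replicate 1 (log2 fold change 1.04, adjusted p = 0.00204) and without BRL-50481 replicate 3 (1.00, adjusted p = 0.0201). KIF6 and KIF25, at means of 17.6 and 8.27 in DMSO, had log2 fold changes of 0.20 (95% interval -0.47 to 0.86, adjusted p = 0.607) and -0.40 (95% interval -1.65 to 0.84, adjusted p = 0.57).

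Set in order of level, KIF5B, KIFC3 and KIF1C led the family in DMSO, at 2114, 1459 and 1318 normalized counts per kilobase of the canonical transcript, and each stood apart from the next in the DMSO libraries. Then came KIFC1, KIF2C, KIF3B, KIF20B, KIF11 and KIF22, between 769 and 595, whose neighbours in the order overlapped. Of the 34 pairs of neighbours over the whole order, 12 were separate in the DMSO libraries. In BRL-50481 the order by mean was KIF5B, KIFC3, KIF2C, KIF11, KIFC1 and KIF1C, with KIF2C at 1543 and KIF1C at 959. The levels at the bottom were those of KIF21B, KIF25, KIF26B, KIF6 and KIF5C in DMSO, at 18.6 or less per kilobase.

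**Figure D4:**
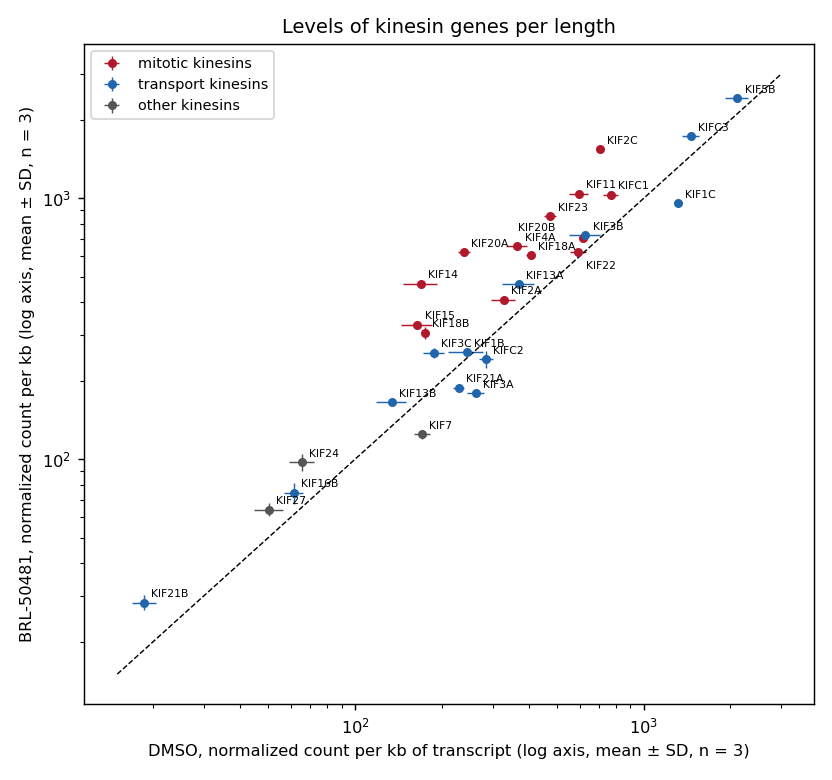
Normalized counts per kilobase of transcript in DMSO (horizontal) and BRL-50481 (vertical), both on log axes, for the same 29 kinesin genes, as means of 3 libraries with SD bars. The mitotic kinesins lie above the dashed line of equal levels, KIF22 close to it, and KIF1C, KIF3A, KIF21A, KIFC2 and KIF7 lie below.

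Summed per kilobase, the mitotic kinesins made up 42.2%, 42.5% and 42.2% of the family in the DMSO libraries and 53.5%, 53.4% and 53.3% in the BRL-50481 libraries. The transport kinesins made up 55.5%, 55.1% and 55.3% in DMSO and 44.7%, 44.8% and 44.7% in BRL-50481. The mitotic sum per kilobase was 5818, 5509 and 5500 in DMSO and 9133, 9211 and 9247 in BRL-50481. The transport sum was 7647, 7139 and 7202 against 7639, 7720 and 7758. The transport sums of the groups overlapped, since DMSO replicate 1 lay above the lowest BRL-50481 library.

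Kinesin transcripts are long, with a median of 5342 bases against 3166 over all genes, and the fold changes of all genes followed transcript length. The trend was fitted over genes with a known transcript length, scarce genes left out, on log2 values relative to the mean of the 6 libraries. These values rose with each doubling of length by 0.0354 to 0.0485 in the BRL-50481 libraries and by 0.0324 in DMSO replicate 1. They changed by -0.0973 and -0.0674 in the other DMSO libraries. The length and GC correction was fitted on the same genes and applied to all genes with a known length. Among the 4820 genes with transcripts of 3538 to 7106 bases, the middle range of the kinesins, the median log2 fold change was 0.07 and 34.8% were called higher. After each library was corrected for its trend on length and GC content, 22 kinesins were called higher and 7 lower. The mitotic kinesins then had a median log2 fold change of 0.77 with 11 called higher and 0 lower, KIF20B losing its call at 0.05 (adjusted p = 0.312). The transport kinesins had a median of 0.10 with 8 higher and 6 lower, as KIF16B lost its call and KIF1B was called lower at -0.15 (adjusted p = 0.00375). The log2 fold changes of KIF2A, KIF3B, KIF5B, KIF13B and KIF27 were then smaller by more than 1.5 times, with their calls kept. Without DMSO replicate 1, 25 kinesins were called higher and 6 lower, with medians of 0.86 for the mitotic and 0.28 for the transport kinesins.

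**Figure D5:**
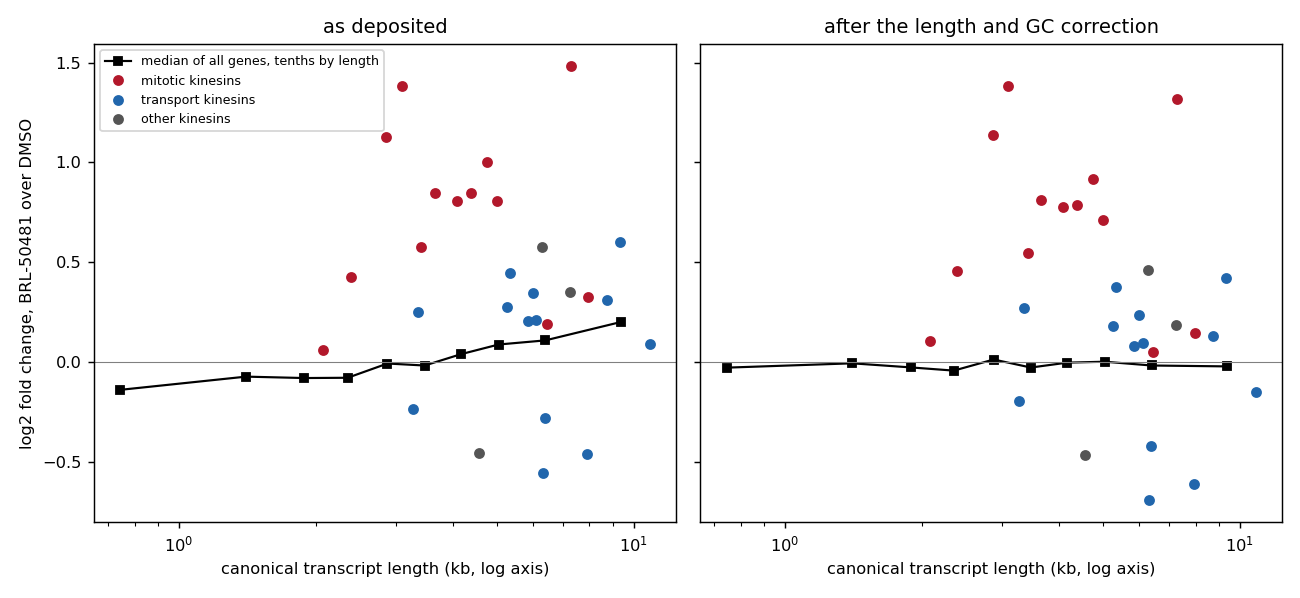
Log2 fold change, BRL-50481 over DMSO, against transcript length in kilobases on a log axis, for the same 29 kinesin genes by class, as deposited (left) and after the correction for length and GC content (right). Black squares are medians over all genes in 10 groups of length, which go from -0.14 for the shortest to 0.20 for the longest transcripts on the left and all lie between -0.04 and 0.01 on the right, below most mitotic kinesins in both panels.

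Transcripts of proteins that mitotic kinesins act with rose as well. All 10 listed genes were called higher, against 28.9% of all genes, and their median log2 fold change was 0.55. CIT, which encodes citron kinase, the midbody partner of KIF14, had 1144, 890 and 996 normalized counts in DMSO and 3072, 3182 and 3087 in BRL-50481, a log2 fold change of 1.63 (SE 0.08, adjusted p = 4.8e-09, limma). The groups of CIT did not overlap. The 3 most abundant per kilobase in DMSO were TPX2, which activates Aurora A on the spindle, with a log2 fold change of 0.60 (adjusted p = 1.18e-07), AURKB, the Aurora B kinase of the chromosomal passenger complex, with 0.17 (adjusted p = 0.0262), and PRC1, the midzone bundler, with 0.47 (adjusted p = 1.6e-06). This list also held CENPE, a centromere kinesin whose symbol does not begin with KIF and which was picked out after its values were seen, at 1.38 (adjusted p = 1.02e-08).

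Genes for the light chains and adaptors that tie transport kinesins to cargo were called in both directions. Of 14 genes tested, 3 were called higher (21.4%, against 28.9% of all genes), 6 lower (42.9%, against 29.8%) and 5 were not called, with a median log2 fold change of -0.11. KLC4, a light chain, was the called gene with the largest rise, from 617, 680 and 627 normalized counts to 884, 910 and 918, a log2 fold change of 0.50 (adjusted p = 4.19e-05). KLC3, another light chain, fell the most among the called genes, from 362, 445 and 411 to 273, 285 and 281, a log2 fold change of -0.53 (adjusted p = 0.000379). Both separated the groups. KLC1, the most abundant light chain per kilobase in DMSO, had a log2 change of -0.17 (adjusted p = 0.0163), and KLC2, the next, had -0.42 (adjusted p = 1.34e-05).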

How the data were processed

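The cells were cultured, treated and sequenced by the authors as single-end reads of 76 bases in strand-specific libraries. The labels describe oligo-dT selection and the series text ribosomal RNA depletion. Per the submitters' processing notes and the methods, reads were aligned to hg38 with STAR 2.7.1a, counted per gene with HTSeq in reverse-strand mode, filtered for low values and normalized with DESeq2 1.28. The deposited signal of a gene in a library is the read count divided by the size factor that the authors estimated. Other columns hold the authors' own comparison (mean, log2 fold change, standard error, statistic, p-values) and were not used.

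The main test was limma 3.58.1 (R 4.3.3), trend-moderated and two-sided, fitted to log2 of each normalized count after adding 1, for the 15246 genes with at least 4 normalized counts in at least 3 libraries. The other 405 genes failed this filter. A gene was called if its p-value, after Benjamini-Hochberg adjustment over these genes, was under 0.05. Fold changes are on the scale of log2 of the value plus 1, and those of scarce genes depend on the count added. For KIF5C the log2 fold change was 2.15, but 2.52 with a pseudocount of 0.5 and 1.33 with 4. It was 2.03 with edgeR and 2.07 with DESeq2. Dividing each value by what 1 read is worth in its library gave whole reads for 100% of values (tolerance 0.001 reads), and these reads went into edgeR 4.0.16 and DESeq2 1.42.0 as alternatives. In 3 libraries 1 read is worth within 1% of 1, where recovered reads and values are nearly the same numbers. Other alternatives were no filter, a mean of at least 20, a pseudocount of 0.5 or 4, quantile normalization, median centring, no trend, unadjusted p-values, KIF2A moved to the other kinesins, the replicate block, leaving out each library, and a loess correction (span 0.5) for transcript length and GC content. Of these procedures, only the main limma fit, edgeR and DESeq2 were tried on simulated counts. In those counts few genes were changed and no trend on transcript length was put in. The other alternatives were not tried on them.

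Positions, lengths and exon overlaps came from GENCODE release 44 on hg38, matched by symbol for 14216 genes and by an older symbol for 891. The authors' gene models were not used here, so overlaps could differ. Opposite-strand exon overlaps, such as those of KIF2A with DIMT1 (18.7% of exon bases) and KIFC2 with FOXH1 (17.8%), were not weighed because the counting used strand. Genes set out in full were, per class, the 5 largest changes among called genes with a mean of at least 100 and the 2 most abundant per kilobase. The members, classes and lists were chosen with earlier results of these data known. Of the list of kinesin light chains and adaptors, 1 gene is not reported here. Figures were drawn with matplotlib 3.10.9.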

Additional observations from a re-analysis of the deposited data

How the results depend on the processing

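The mitotic kinesins were called at 11 or 12 higher and 0 lower under all alternatives. The transport kinesins called higher, 9 in the main test, were 6 with limma without a trend and without BRL-50481 replicate 1. They were 10 without DMSO replicate 1. Those called lower, 5 in the main test, were 4 with limma without a trend and 6 with the length and GC correction. The number of kinesins called stayed within 1.5 times its value under all alternatives, at 21 to 25 higher and 5 to 7 lower, with edgeR calling 24 and 6 and DESeq2 23 and 6. The mitotic median of 0.81 went to 0.86 with quantile normalization and to 0.79 to 0.86 when 1 library was left out. The transport median of 0.21 went to 0.10 with the length and GC correction and to 0.15 to 0.28 without 1 library. The median of the other kinesins, 0.35, went to 0.45 with a mean of at least 20, 0.26 with quantile normalization, 0.19 with the length and GC correction, 0.21 with that correction and without DMSO replicate 1 (an alternative chosen after seeing the data), and 0.30 to 0.44 without 1 library. The sign of 4 genes changed under some alternative. KIF1B went to -0.15 with the correction and -0.13 with it and without DMSO replicate 1, where KIF20B went to -0.0022 and KIF22 was called at 0.12 (adjusted p = 0.0378, limma). KIF6 went to -0.0354 with quantile normalization, -0.0028 with the correction and -0.15 with it and without DMSO replicate 1, and KIF25 ran from -0.88 without BRL-50481 replicate 2 to 0.20 without BRL-50481 replicate 3. The cause was not tested. KIF3B, KIF5C, KIF9, KIF16B and KIFC2 each lost their call when some library was left out. The low counts of KIF5C, KIF6 and KIF25 limit what can be said of them.

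With the replicate number as a block, 25 kinesins were called higher and 6 lower (mitotic 12 and 0, transport 9 and 5, other 4 and 1), KIF26B being the call gained (adjusted p = 0.0303, limma). The deviations of same-numbered libraries correlated at 0.121, 0.104 and 0.0514 over 12251 genes. Libraries of different numbers were not correlated for comparison, so these values cannot decide whether same-numbered libraries share more than a number.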

Other observations

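Cytoplasmic dynein, the motor that walks to the minus end against most kinesins, and dynactin, its activator, were counted for comparison with the transport kinesins. Of 16 genes, 6 were called higher and 6 lower (37.5% each, against 28.9% and 29.8% of all genes) and 4 were not called (limma, Benjamini-Hochberg adjusted p under 0.05), with a median log2 fold change of 0.08. DYNC1H1, the heavy chain, had 34619, 24496 and 25775 normalized counts in DMSO and 44662, 46735 and 45581 in BRL-50481, a log2 fold change of 0.71 (SE 0.10, adjusted p = 3.32e-05). Its groups did not overlap, and DMSO replicate 1 was the closest to BRL-50481. The transcript of DYNC1H1 has 19940 bases. In the longest of the 10 groups of length, with a median of 9394 bases, the median log2 fold change was 0.20. Values under the length and GC correction are not given for DYNC1H1 or for the other dynein, adaptor and partner genes. DYNC1LI1, a light intermediate chain that binds cargo adaptors, had 4741, 4689 and 4731 in DMSO and 3312, 3347 and 3198 in BRL-50481, a log2 fold change of -0.52 (SE 0.05, adjusted p = 9.11e-07). The 3 most abundant per kilobase in DMSO were the light chain genes DYNLL1, DYNLRB1 and DYNLT1, with log2 changes of -0.22 (adjusted p = 0.00722), -0.32 (adjusted p = 0.000234) and 0.05 (adjusted p = 0.539).

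Relatives within the mitotic class also moved by unequal amounts, in pairs chosen after the values were seen. The ratio of KIF20A to KIF20B per kilobase was 0.372, 0.385 and 0.404 in DMSO and 0.882, 0.913 and 0.854 in BRL-50481, and that of KIF2C to KIF2A was 1.90, 2.31 and 2.32 against 3.68, 3.87 and 3.77. Neither pair of groups overlapped (exact permutation test, two-sided, p = 0.1 each, the smallest possible and unchanged by adjustment over the 8 ratios computed).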
